A study of Python bivittatus with 8 samples.

Results

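The 96 genes described here are the abundant transcripts of the left ventricle of the Burmese python (Python bivittatus), a snake whose heart grows after a large meal and shrinks again as digestion ends. They were taken by level alone, as the genes with a mean of at least 1000 CPM over all 8 libraries (CPM, the count divided by the library total and multiplied by 1000000) and a length under 12000 bases, and are 96 of the 21368 genes in the table. RNA with poly-A tails was sequenced from wild-type snakes of about 2 kg in 4 groups of 2 libraries. All had been fasted for 28 days. The fasted group was taken then, and the groups called 1DPF, 4DPF and 6DPF were taken 1, 4 and 6 days after a rodent meal of 25% of body mass (DPF, days post-fed). The design text calls 1DPF a time of active heart growth, 4DPF early regression and 6DPF later regression. The labels do not say whether the libraries of a group come from separate snakes, and they give n = 6 snakes for sequencing and proteomics, fewer than the 8 libraries, so the spread between libraries may be in part technical.

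A working heart spends much of its RNA on few kinds of protein: the filaments that contract, the mitochondrial enzymes that supply ATP, the pumps and channels that move calcium, and the ribosomes that make all of these. Transcripts of that kind usually head the list of a ventricle, and the growth of the python heart after feeding is known as a reversible enlargement of existing muscle cells. The deposited table gives each gene a number and a length but no name, so no role is given to any gene here, and the labelled tissue was not checked against marker genes. Genes are called by their rank in mean CPM, from rank 1 to rank 96, and 4 of them also by identifier. In whole tissue, fewer cells of a type and less RNA per cell cannot be told apart.

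Library totals ran from 33203808 to 42250755 counts, and between 378 and 512 genes made up 50% of a library. The replicates of each group differed by more than sampling noise, with a chi-square per degree of freedom of 48.6 to 67.6. The test used below is edgeR's quasi-likelihood test on all 16986 genes with enough counts, which include all 96. A gene is said to have changed when its Benjamini-Hochberg adjusted p over those genes was under 0.05, and fold changes are on the log2 scale. The rule used the mean over all libraries and no difference between groups. It still favours genes that are very high in 1 group: without 1 of the groups, the mean of 7 of the 96 would be under 1000 CPM. They are the genes of rank 77, 90 and 92 to 96, and their differences are to be read with that in mind.

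The 96 genes took 30.0% of all counts. Their share was 30.4% and 30.2% when fasted, then 28.6% and 28.9% (1DPF), 30.9% and 32.7% (4DPF), and 28.1% and 30.3% (6DPF). The 1DPF libraries lay below the fasted and the 4DPF libraries, while 1 of the 6DPF libraries lay below both 1DPF values and the other between the fasted values. Both 4DPF libraries lay above all the others. The 10 most abundant held 11.9% ± 0.67 (SD, n = 2) of the counts in fasted ventricle, 11.4% ± 0.497 (1DPF), 12.7% ± 0.479 (4DPF) and 11.1% ± 0.605 (6DPF, SD, n = 2 each). Ranks 51 to 96 together held between 5.7% and 6.48% of a library. These shares are a description, since the genes were chosen by level in the same libraries.

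**Figure D1:**
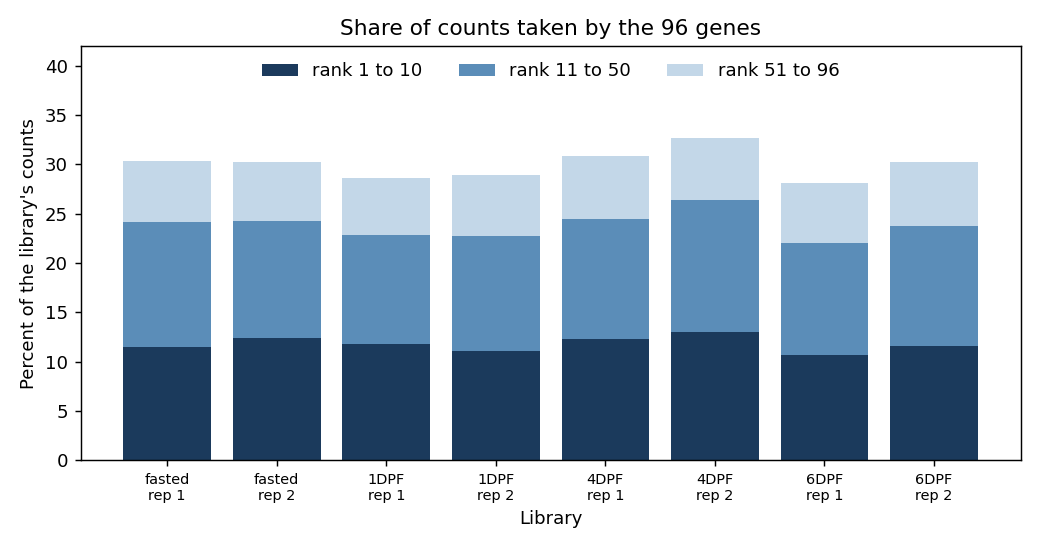
Percent of each library's counts (vertical axis, from 0) taken by the 96 genes, stacked by rank band, for the 8 libraries (horizontal axis). The total stays between 28.1% and 32.7% in every library and is highest in the 4DPF libraries.

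Within that total, counts were exchanged among the 96 genes. Between the fasted and 1DPF group means, 39 genes gained 4.05% of the counts in sum, and 57 fell by 5.57%. From fasted to 4DPF, 48 genes gained 6.92% and 48 fell by 5.43%. From fasted to 6DPF 47 genes gained 2.50% and 49 fell by 3.58%. Gains and losses also arise between replicates, so the exchange (the summed absolute difference over the 96 genes, divided by 2) was taken for every pair of libraries. It was 2.40% to 2.99% of the counts in the 4 pairs from the same group and 2.96% to 7.55% in the 24 pairs from different groups. The pairs of a fasted and a 6DPF library, at 2.96% to 4.27%, came closest to the replicate pairs, and the pairs of a fasted and a 4DPF library were farthest, at 4.97% to 7.55%. The 4DPF pairs of fasted replicate 2 had 7.32% and 7.55%. Those of fasted replicate 1 had 4.97% and 5.32%, within the range of the 1DPF and 4DPF pairs (3.88% to 5.42%).

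Some genes crossed the limit between groups. By group mean, 107 genes under 12000 bases reached 1000 CPM when fasted, with 102 doing so in the 1DPF, 93 in the 4DPF and 98 in the 6DPF group. Of the 96, 74 reached it in all 4 groups and 62 in all 8 libraries, while 42 genes outside the list reached it in at least 1 group. The 3 genes just inside the limit had means of 1018, 1013 and 1012 CPM, and the 3 just outside had means of 993, 989 and 988 CPM. The length limit left out 3 genes, of 99527, 23468 and 15123 bases, with means of 8932, 1261 and 1084 CPM. The longest of them would have been rank 7. It had 12639.7 and 9395 CPM when fasted, then 8738 and 9944 (1DPF), 8949 and 7119 (4DPF) and 7742 and 6929 (6DPF), and did not pass the test across the 4 groups (edgeR adjusted p = 0.25). Of these 3 genes only that of 15123 bases passed a test, between 1DPF and 6DPF (log2 change -0.70, edgeR adjusted p = 0.046).

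The 96 genes had a median length of 1958 bases, against 2503 over the tested genes, which had no length limit. Of the 96, 34 (35.4%) were under 1500 bases, against 25.9% of the tested genes. The median SD between their replicates was 0.17 in log2 CPM, against 0.22 over all tested genes. The rule chose genes with high counts, where this SD tends to be smaller, and no set of like counts was compared. The median absolute log2 change from fasted to 1DPF was 0.376 in the 96, against 0.398 over all tested genes. From fasted to 4DPF it was 0.392 against 0.352, and from 1DPF to 6DPF 0.325 against 0.415. In the median gene of the 96 the highest library had 1.82 times the CPM of the lowest. By this ratio 22 genes stayed under 1.5 times, and 33 reached at least 2 times. The ratio was not taken over all tested genes. The steadiest by this ratio was the gene of rank 79, with 1139 and 1172 CPM when fasted, then 1141 and 1268 (1DPF), 1234 and 1354 (4DPF) and 1103 and 1218 (6DPF). That of rank 17 had 4641 and 4362 CPM when fasted, then 3745 and 3744 (1DPF), 4116 and 4044 (4DPF) and 4794 and 4298 (6DPF), a span of 1.28 times. Its replicates at 1DPF lay below all the other libraries, yet no comparison passed. Ranks 79 and 17 were picked for this steadiness, after their values were seen.

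**Figure D2:**
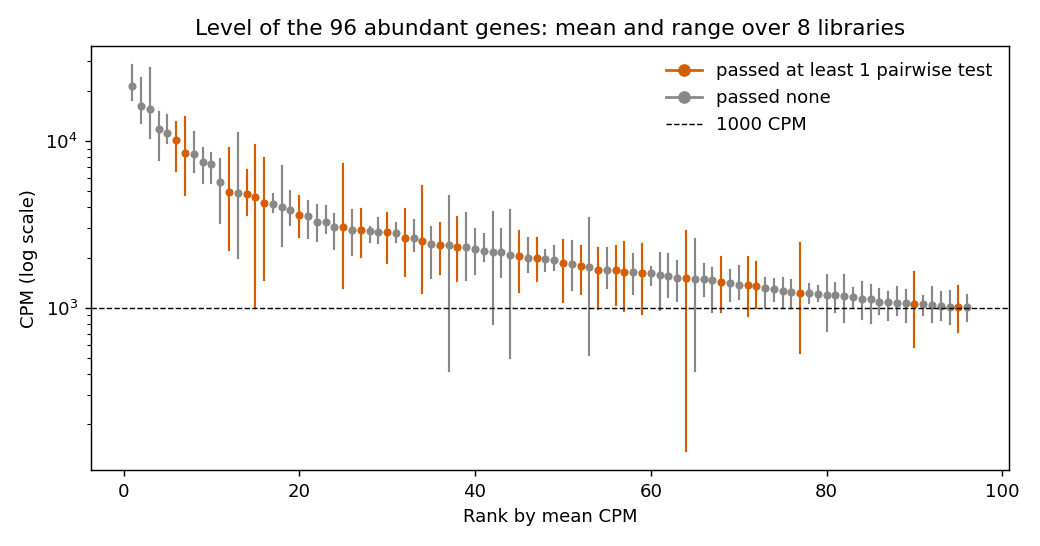
CPM on a log scale (vertical axis) against rank in mean CPM (horizontal axis) for the 96 genes. Points are means and lines the range over the 8 libraries, orange where a gene passed at least 1 of the 6 pairwise tests (29 genes), and the dashed line is the limit of 1000 CPM. Long lines mark ranks 15, 37 and 64, whose highest library is between 9.38 and 20.9 times the lowest.

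The leading genes held their places in part. Of the 15 genes that were among the 10 most abundant of some group, 5 were so in all 4. The gene of rank 1 (6373 bases) had 20372 and 18347 CPM when fasted, then 28439 and 22519 (1DPF), 23424 and 20412 (4DPF) and 20492 and 17689.7 (6DPF). The 2 highest of these values, 28439 and 23424, belong to 1DPF and 4DPF, but each of those groups has a replicate near the others, and none of the 6 comparisons passed: the log2 change from fasted to 1DPF was 0.36 (95% interval -0.21 to 0.92, edgeR adjusted p = 0.34). Rank 2 (3771 bases) had 13829 and 13592 CPM when fasted, then 15219 and 12835 (1DPF), 20431 and 23833 (4DPF) and 14190.3 and 15519 (6DPF). Both 4DPF libraries were above the other 6, but the log2 change from fasted to 4DPF was 0.71 (95% interval 0.15 to 1.26, edgeR adjusted p = 0.103) and did not pass.

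The gene of rank 3 (1476 bases) was the most abundant of all in the fasted group. It had 15814 and 27464 CPM when fasted, then 12893 and 14392 (1DPF), 10409 and 11398 (4DPF) and 13852 and 17671 (6DPF). The fasted libraries differed more from each other than the 1DPF, 4DPF and 6DPF libraries did, and the log2 change from fasted to 4DPF was -0.97 (95% interval -1.73 to -0.21, edgeR adjusted p = 0.102). Rank 4 (2312 bases) had 9981 and 7702 CPM when fasted, then 12471 and 12873 (1DPF), 14866 and 14741 (4DPF) and 11906 and 9624 (6DPF), with both 4DPF libraries highest, and a change from fasted to 4DPF of 0.76 (95% interval 0.21 to 1.31, edgeR adjusted p = 0.086). Rank 5 (1308 bases) lay between 9659.7 and 14359 CPM in all libraries, and its change from fasted to 1DPF was -0.19 (95% interval -0.73 to 0.36, edgeR adjusted p = 0.615).

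Of the 12 most abundant genes, 3 passed at least 1 pairwise test: ranks 6, 7 and 12. The gene of rank 6 (1187 bases) dipped at 1DPF, with 10554 and 10399.8 CPM when fasted, then 6619 and 6657 (1DPF), 12107 and 11760.2 (4DPF) and 10562 and 12956 (6DPF). Its 1DPF libraries were far below the rest, and the log2 change from 1DPF to 6DPF was 0.81 (SE 0.23, edgeR adjusted p = 0.0412), though that from fasted to 1DPF, -0.69, did not pass (edgeR adjusted p = 0.073). The call was lost in 7 of the 8 fits that left out 1 library, all but the fit without 6DPF replicate 1 (log2 change between 0.57 and 0.87, edgeR adjusted p between 0.0595 and 0.15). Rank 7 (1255 bases) was lower at 4DPF and 6DPF, with 9701 and 14001 CPM when fasted, then 9845 and 11305 (1DPF), 4748 and 5524 (4DPF) and 5474 and 7152 (6DPF). All 4 libraries of 4DPF and 6DPF were below all 4 of fasted and 1DPF. For rank 7 the log2 change from 1DPF did not pass at 4DPF (-0.998, edgeR adjusted p = 0.0772) or at 6DPF (-0.763, edgeR adjusted p = 0.0961). Nor did its change from fasted to 6DPF (-0.95, 95% interval -1.62 to -0.29, edgeR adjusted p = 0.169). Its log2 change from fasted to 4DPF was -1.19 (SE 0.29, edgeR adjusted p = 0.0462), and it missed the threshold without any 1 of the fasted, 1DPF or 4DPF libraries (log2 change -1.40 to -0.88, edgeR adjusted p = 0.0552 to 0.249). Ranks 8 to 11 passed no test. Rank 9 (719 bases) had 7619 and 6865 CPM when fasted, then 5672 and 5591 (1DPF), 8258 and 8752 (4DPF) and 7982 and 9074 (6DPF), with both 1DPF libraries lowest, and rank 11 (2713 bases) had 5132 and 3245 CPM when fasted, then 6905 and 7827 (1DPF), 6324 and 7332 (4DPF) and 4199.9 and 4240.4 (6DPF), with all 1DPF and 4DPF libraries above the rest. The change from fasted to 1DPF was -0.40 (95% interval -0.89 to 0.10, edgeR adjusted p = 0.231) for rank 9 and 0.78 (95% interval 0.16 to 1.41, edgeR adjusted p = 0.0839) for rank 11.

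Counts per gene grow with length, so levels of different genes are compared here as TPM, the count per base of the deposited length scaled to a total of 1000000 in each library. On that scale the 96 genes held 30.9% to 34.6% of a library. Rank 1 by CPM became number 10 of all genes in mean TPM. The first places went to short genes: rank 3, rank 9 (719 bases), rank 5 and rank 6. In fasted ventricle the TPM levels were 28134 ± 10623 for rank 3, 19344 ± 1490.1 for rank 9, 18126 ± 4591 for rank 7, 16949.6 ± 234 for rank 6 and 16272 ± 757 for rank 5 (SD, n = 2 each), and the first 3 of these overlap within their SDs. At 4DPF the order was rank 9 with 22172 ± 284, rank 5 with 19108 ± 1511, rank 6 with 18861 ± 922 and rank 25 with 18788 ± 3296 (SD, n = 2 each). The last 3 of these do not differ beyond their spread. At 6DPF rank 9 stood at 22261 ± 652, with rank 3 at 19992 ± 2209 and rank 6 at 18563 ± 1540.4 (SD, n = 2 each).

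The first question of the design is what changes as the heart grows, between fasted and 1DPF. Among the 96 genes 16 (16.7%) changed, 5 higher and 11 lower at 1DPF, where 19.2% of all tested genes changed, 9.58% higher and 9.66% lower. DESeq2 called 33 of the 96 here, 10 of them higher. Its share over all tested genes is not given, so this and the later DESeq2 counts cannot be set against the edgeR shares. By edgeR the share of the abundant genes that changed was near that of all genes, while 28.1% of the 1504 genes between 100 and 1000 CPM changed (225 higher, 197 lower). The median log2 change over the 96 was -0.18, with 60 of 96 negative, against -0.0045 over all tested genes. The 11 lower genes went from 4.24% of the counts to 2.1% and the 5 higher ones from 0.757% to 2.27%. The same libraries served for the calls and for these shares, which can exaggerate the change. Of the 5 higher genes, ranks 77 and 90 would have means of 835 and 974 CPM without the 1DPF group, under 1000 CPM. Their rise is in part a product of the rule, and no share was taken without them. The count of 16 was lower without any 1 of the fasted or 1DPF libraries. Each such fit leaves 1 library in a group and has less power to call a change.

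Gene 103054954 (rank 64, 903 bases) had the largest fall. It stood at 2095 and 2259.9 CPM when fasted, then 197 and 139 (1DPF), 1011 and 1539.6 (4DPF) and 1911 and 2897 (6DPF). The 1DPF libraries were far below all the others, and the 4DPF libraries lay between them and the fasted ones. From 2178 CPM ± 116 (SD, n = 2) it fell to 168 CPM ± 41.4 (SD, n = 2), which is -3.74 (SE 0.34, edgeR adjusted p = 0.00123) on the log2 scale, or 13.3-fold. It rose by 2.98 from 1DPF to 4DPF (SE 0.33, edgeR adjusted p = 0.0107), a call that was lost without 1DPF replicate 2 (log2 change 2.80, edgeR adjusted p = 0.0643). At 6DPF it differed from fasted by 0.10 (95% interval -0.60 to 0.80, edgeR adjusted p = 0.91). Among the 96 genes it went from rank 42 in fasted ventricle to the last place at 1DPF and was rank 39 at 6DPF.

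Gene 103065295 (rank 59, 3514 bases) had the next largest fall among the genes that passed, with 1994 and 2429 CPM when fasted, then 1029.8 and 919 (1DPF), 1277 and 1183 (4DPF) and 2242 and 1861 (6DPF). Its 1DPF and 4DPF libraries were all below its fasted and 6DPF libraries. On the log2 scale it was -1.22 (SE 0.17, edgeR adjusted p = 0.00446) from fasted at 1DPF and -0.83 (SE 0.17, edgeR adjusted p = 0.0304) at 4DPF, and from 1DPF to 6DPF it was 1.05 (SE 0.17, edgeR adjusted p = 0.00616). The calls at 1DPF and between 1DPF and 6DPF were kept in all 8 fits that left out 1 library. The call at 4DPF was lost without any 1 of the fasted or 4DPF libraries (log2 change -0.94 to -0.66, edgeR adjusted p = 0.0752 to 0.202).

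Rank 12 (1718 bases) fell at 1DPF and stood lower still at 4DPF. It had 8308 and 9049.5 CPM when fasted, then 3039.8 and 4623 (1DPF), 2231 and 2316 (4DPF) and 4576 and 5184 (6DPF). No fed library reached the fasted ones, and the 6DPF libraries were near the higher 1DPF library. The log2 change from fasted was -1.20 (SE 0.27, edgeR adjusted p = 0.0208) at 1DPF and -1.92 (SE 0.27, edgeR adjusted p = 0.0164) at 4DPF, and -0.88 (95% interval -1.50 to -0.26, edgeR adjusted p = 0.172) at 6DPF. Rank 34 (2763 bases) followed a like course, with 3911 and 5367 CPM when fasted, then 1631 and 2564 (1DPF), 1277 and 1219 (4DPF) and 2088 and 2165 (6DPF). Again every fed library was below both fasted ones. Its log2 change from fasted was -1.16 (SE 0.28, edgeR adjusted p = 0.026) at 1DPF, -1.88 (SE 0.29, edgeR adjusted p = 0.0178) at 4DPF and -1.18 (95% interval -1.83 to -0.53, edgeR adjusted p = 0.116) at 6DPF. The further change from 1DPF to 4DPF did not pass for rank 12 (-0.72, edgeR adjusted p = 0.143) or rank 34 (-0.72, edgeR adjusted p = 0.157). For both genes the 1DPF call was lost without either fasted library or without 1DPF replicate 1 (log2 changes -1.24 to -0.88 for rank 12 and -1.36 to -0.83 for rank 34, edgeR adjusted p = 0.051 to 0.147). Their 4DPF calls were lost without any 1 of the fasted or 4DPF libraries (log2 changes -1.95 to -1.83 and -2.06 to -1.61, edgeR adjusted p = 0.0596 to 0.137).

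The other 7 genes lower at 1DPF were those of rank 14, 20, 30, 36, 47, 50 and 72, with log2 changes between -1.06 and -0.76. Ranks 36 and 30 are described after their values were seen. Rank 36 (9918 bases) had 2871 and 3206 CPM when fasted, then 1601 and 1621 (1DPF), 2107 and 2473 (4DPF) and 2490.3 and 2778 (6DPF). Both 1DPF libraries were below the other 6. Rank 30 (4710 bases) had 3487 and 3681 CPM when fasted, then 2135 and 1858 (1DPF), 2575 and 2539 (4DPF) and 3017 and 3359 (6DPF), again with the 1DPF libraries lowest. The 11 lower genes had a median length of 3211 bases, and the 5 higher ones 1707.

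The largest rise was that of gene 103052031 (rank 77, 3440 bases), with 533 and 565 CPM when fasted, then 2416 and 2438 (1DPF), 1289 and 1060.1 (4DPF) and 949 and 615 (6DPF). Its 1DPF libraries were close to each other and above all the others, and its mean over the other groups, 835 CPM, would not have put it on the list. It rose from 549 CPM ± 22.3 (SD, n = 2) to 2427 CPM ± 15.7 (SD, n = 2), or 2.11 (SE 0.21, edgeR adjusted p = 0.00143) on the log2 scale, fell by 1.00 to 4DPF (edgeR adjusted p = 0.0361) and by 1.67 from 1DPF to 6DPF (edgeR adjusted p = 0.00276). At 4DPF it was still above fasted, by 1.11 (SE 0.21, edgeR adjusted p = 0.0251), and at 6DPF the difference was 0.44 (95% interval -0.03 to 0.92, edgeR adjusted p = 0.336). The changes from fasted to 1DPF and from 1DPF to 6DPF were called in all 8 fits that left out 1 library. The step from 1DPF to 4DPF was not called without any 1 of the fasted, 1DPF or 4DPF libraries (log2 change -1.12 to -0.87, edgeR adjusted p = 0.0669 to 0.156), nor the 4DPF difference from fasted without any 1 of the fasted or 4DPF libraries (log2 change 1.01 to 1.26, edgeR adjusted p = 0.0581 to 0.157).

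Gene 103048247 (rank 15, 1455 bases) was high at 1DPF and 4DPF and low before and after. It had 2943 and 1009 CPM when fasted, then 6508 and 9456 (1DPF), 7947 and 5517 (4DPF) and 2283 and 1433 (6DPF). All 4 libraries of 1DPF and 4DPF were above all 4 of fasted and 6DPF, but replicates differed widely, by 2.92 times in the fasted group. The log2 change from fasted was 1.99 (SE 0.51, edgeR adjusted p = 0.0322) at 1DPF and 1.77 (SE 0.51, edgeR adjusted p = 0.0675) at 4DPF, so that the 4DPF difference did not pass. From 1DPF to 6DPF the change was -2.15 (SE 0.51, edgeR adjusted p = 0.0233). The 1DPF call was lost without fasted replicate 2 or 1DPF replicate 2 (log2 change 1.43 and 1.62, edgeR adjusted p = 0.105 and 0.123), and the call from 1DPF to 6DPF without 1DPF replicate 2 or either 6DPF library (log2 change -2.42 to -1.78, edgeR adjusted p = 0.0661 to 0.115).

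Rank 16 (1707 bases) shared this course, with 3193 and 1461 CPM when fasted, then 6220.4 and 7939 (1DPF), 5149 and 4953 (4DPF) and 2445 and 2673 (6DPF). Its 1DPF libraries were highest, its 4DPF libraries next, and the fasted and 6DPF libraries overlapped. The change from fasted to 1DPF was 1.58 (SE 0.37, edgeR adjusted p = 0.0236) and that from 1DPF to 6DPF was -1.49 (SE 0.37, edgeR adjusted p = 0.0256). Rank 32 (2264 bases) had 2479.6 and 1560.2 CPM when fasted, then 3891 and 3907 (1DPF), 2843 and 2808 (4DPF) and 1748 and 1724 (6DPF), in the same order of groups, with changes of 0.91 (SE 0.24, edgeR adjusted p = 0.0345) and -1.19 (SE 0.24, edgeR adjusted p = 0.0133) in those comparisons. The fifth riser, rank 90 (884 bases), had 822 and 584 CPM when fasted, then 1283 and 1322 (1DPF), 1229 and 1649.9 (4DPF) and 823 and 735 (6DPF), with a change from fasted of 0.86 (SE 0.23, edgeR adjusted p = 0.0366) at 1DPF and 1.05 (SE 0.23, edgeR adjusted p = 0.0362) at 4DPF. Rank 90 also reached the list only through its fed levels, since its mean without the 1DPF or the 4DPF group is under 1000 CPM. Each of these calls was lost in 2 to 5 of the 8 fits that left out 1 library, among them the 1DPF calls of ranks 16, 32 and 90 without fasted replicate 2 or 1DPF replicate 2 (log2 change 0.64 to 1.32, edgeR adjusted p = 0.0504 to 0.18 over the fits that lost them).

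**Figure D3:**
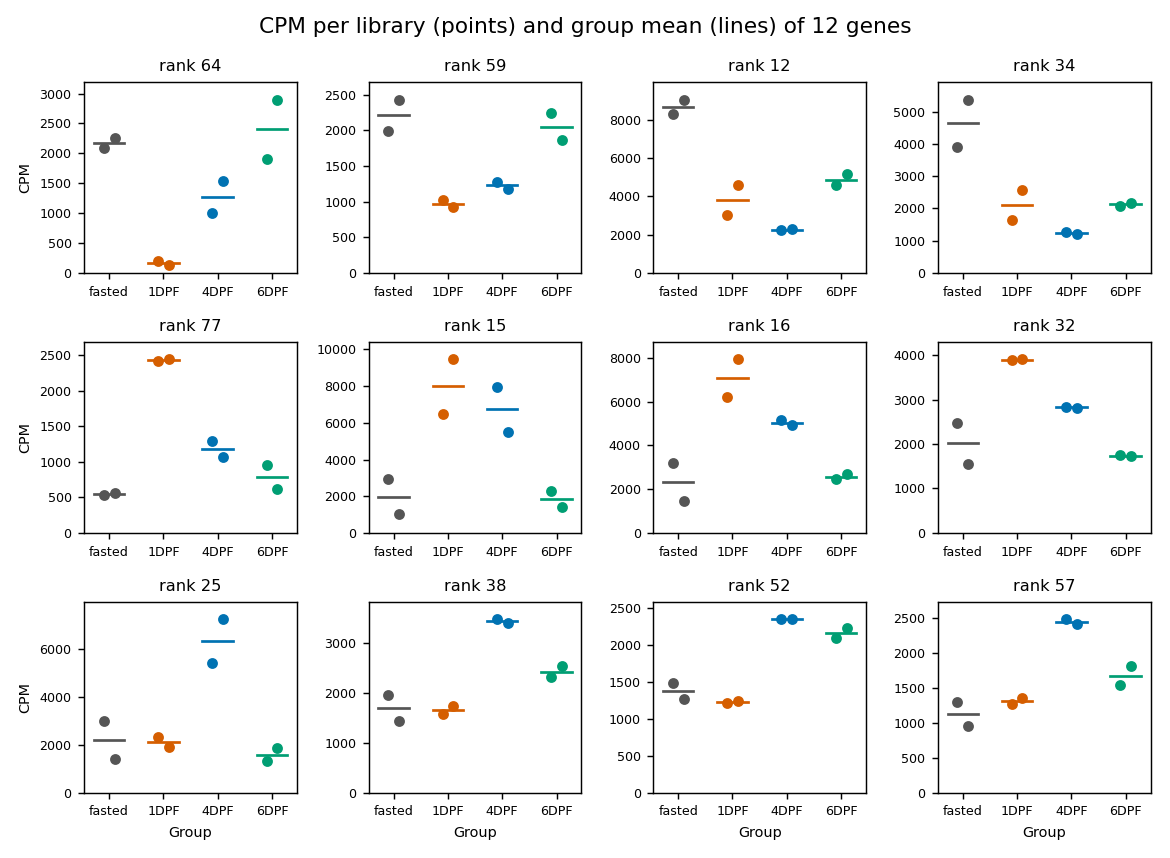
CPM per library (points, vertical axes from 0) and group mean (lines) in the 4 groups (horizontal axes) for 12 genes, with falls at 1DPF in the top row, rises at 1DPF in the middle row and genes highest at 4DPF in the bottom row. At 1DPF rank 64 lies at 197 and 139 CPM and rank 77 at 2416 and 2438 CPM, each apart from all other groups.

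Early regression was set against growth by comparing 4DPF with 1DPF. Here 5 of the 96 genes (5.21%) changed, 4 higher and 1 lower, against 6.16% of all tested genes (3.96% higher and 2.2% lower). DESeq2 called 18 of the 96, which cannot be set against that edgeR share. The 4 that rose were ranks 38, 52, 57 and 64, and the 1 that fell was rank 77. Without the 1DPF group the mean of rank 77 would be under 1000 CPM. Rank 38 (1767 bases) had 1954 and 1443 CPM when fasted, then 1585 and 1739 (1DPF), 3480.3 and 3401 (4DPF) and 2311 and 2536 (6DPF). Both 4DPF libraries were above the other 6, and the change from 1DPF was 1.09 (SE 0.21, edgeR adjusted p = 0.033). Rank 52 (4249 bases) had 1484 and 1264 CPM when fasted, then 1217 and 1239 (1DPF), 2353 and 2349.6 (4DPF) and 2105 and 2235 (6DPF), with all 4 libraries of 4DPF and 6DPF above all 4 of fasted and 1DPF and a change from 1DPF to 4DPF of 0.98 (SE 0.18, edgeR adjusted p = 0.0271). Rank 57 (1704 bases) had 1298 and 953 CPM when fasted, then 1278 and 1355 (1DPF), 2489.6 and 2417 (4DPF) and 1539 and 1821 (6DPF), highest in both 4DPF libraries, with a change of 0.94 (SE 0.22, edgeR adjusted p = 0.0469). The calls of ranks 38, 52 and 57 were each lost without any 1 of the 1DPF or 4DPF libraries, and that of rank 57 also without either fasted library (log2 change 0.85 to 1.23, edgeR adjusted p = 0.0573 to 0.148). The count of 5 was lower without any 1 of the 1DPF or 4DPF libraries, in fits that leave 1 library in a group.

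Fed hearts in early regression were also compared with fasted ones. At 4DPF, 15 of the 96 genes (15.6%) differed from fasted, 8 higher and 7 lower, against 8.57% of all tested genes (4.54% higher and 4.02% lower). With DESeq2 the count was 33 of the 96, which cannot be set against that edgeR share. Between 100 and 1000 CPM the edgeR share was 14.6%. The 8 higher genes were ranks 25, 38, 52, 56, 57, 68, 77 and 90, and the 7 lower ones were ranks 7, 12, 14, 34, 59, 72 and 95. Of these, ranks 77, 90 and 95 would have means under 1000 CPM without 1 of the groups. The comparison uses the same fasted libraries as that of 1DPF with fasted. Of the 8 higher genes, 6 had a 95% interval that held 0 for the change from fasted to 1DPF, and the log2 changes of all 8 there ran from -0.20 to 2.11. The 15 calls were lost without any 1 of the fasted or 4DPF libraries. Each such fit leaves 1 library in a group and has less power to call a change. These fits therefore cannot decide whether the calls depend on any 1 fasted or 4DPF library.

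Of the genes that passed at 4DPF, rank 25 (631 bases) rose most. It had 2997 and 1398 CPM when fasted, then 2319 and 1924 (1DPF), 5428 and 7251 (4DPF) and 1322 and 1851 (6DPF). Both 4DPF libraries were above all the others, and the 6DPF libraries were within the range of the fasted ones or below it. The change from fasted was 1.54 (SE 0.39, edgeR adjusted p = 0.0497), at the edge of the threshold, and was called in none of the 8 fits that left out 1 library (log2 change 1.12 to 2.23, edgeR adjusted p = 0.0545 to 0.22). Rank 13 (1725 bases) had a similar profile, with 5374 and 2439 CPM when fasted, then 3865 and 3207 (1DPF), 7653 and 11181 (4DPF) and 1985 and 3277 (6DPF). It passed the test across the 4 groups (edgeR adjusted p = 0.045) but no pairwise test, with a change from fasted to 4DPF of 1.28 (95% interval 0.28 to 2.29, edgeR adjusted p = 0.102). Rank 13 is named here for its profile, after its values were seen. Rank 95, which is on the list through its fasted level, had 1344 and 1276 CPM when fasted, then 948 and 903 (1DPF), 713 and 865 (4DPF) and 982 and 1071 (6DPF), and its change from fasted to 4DPF, -0.72 (SE 0.17, edgeR adjusted p = 0.0463), was lost in all 8 such fits (log2 change -0.85 to -0.54, edgeR adjusted p = 0.0517 to 0.207). Ranks 57, 38 and 52 were above fasted at 4DPF by 1.14 (SE 0.22, edgeR adjusted p = 0.0265), 1.03 (SE 0.21, edgeR adjusted p = 0.0321) and 0.79 (SE 0.17, edgeR adjusted p = 0.037). These calls too were lost without any 1 of the fasted or 4DPF libraries, and that of rank 52 also without 1DPF replicate 2 (log2 change 0.70 to 1.41, edgeR adjusted p = 0.0504 to 0.21).

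Between 4DPF and 6DPF none of the 96 genes passed the edgeR test, where 0.0883% of all tested genes did (0.053% higher and 0.0353% lower). At an unadjusted edgeR p under 0.05 there were 24 (25%), against 15.8% of all tested genes. Limma voom called 0 and DESeq2 called 15 of the 96, counts that cannot be set against these edgeR shares. The fitted log2 fold changes ran from -2.06 for rank 25 to 1.04 for rank 12. In 65 of the 96 genes the 95% interval lay within a 2-fold change in either direction, and in the other 31 the interval reached past it. Rank 25 went from 6339.6 CPM ± 1289 (SD, n = 2) to 1587 CPM ± 374 (SD, n = 2), with a log2 change of -2.06 (95% interval -2.97 to -1.15, edgeR adjusted p = 0.108). Rank 12 went the other way, from 2274 CPM ± 59.7 (SD, n = 2) to 4880.2 CPM ± 430.2 (SD, n = 2), a log2 change of 1.04 (95% interval 0.41 to 1.66, edgeR adjusted p = 0.144).

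The comparison of 6DPF with 1DPF sets later regression against growth. Here 16 of the 96 genes (16.7%) changed, 8 higher and 8 lower, against 21.7% of all tested genes (11.3% higher and 10.4% lower). With DESeq2 32 of the 96 were called, a count that cannot be set against the edgeR shares. The 8 higher were ranks 6, 27, 30, 36, 50, 52, 59 and 64, with log2 changes from 0.66 to 3.84, and the 8 lower were ranks 15, 16, 32, 45, 54, 71, 77 and 90, with changes from -2.15 to -0.77. Without the 1DPF group the means of ranks 77 and 90 would be under 1000 CPM. This comparison shares the 1DPF libraries with that of 1DPF and fasted, where the log2 changes of the 8 higher genes ran from -3.74 to -0.20 and those of the 8 lower genes from 0.51 to 2.11. Rank 50 (6694 bases) had 2355 and 2558 CPM when fasted, then 1092 and 1303 (1DPF), 1322 and 1859 (4DPF) and 1957 and 2307 (6DPF). Its 1DPF libraries were lowest, and its change from 1DPF to 6DPF was 0.81 (SE 0.24, edgeR adjusted p = 0.0495), lost without either fasted, either 1DPF or either 6DPF library (log2 change 0.61 to 1.01, edgeR adjusted p = 0.057 to 0.2). The count of 16 was lower without any 1 of the 1DPF or 6DPF libraries, in fits that leave 1 library in a group and have less power.

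At 6DPF none of the 96 genes was called different from fasted by edgeR, where 0.412% of all tested genes were (0.365% higher and 0.0471% lower). At an unadjusted edgeR p under 0.05 there were 12 (12.5%), against 16.4% of all tested genes. Limma voom called 0 and DESeq2 called 8 of the 96, and these counts too cannot be set against the edgeR shares. The fitted log2 differences ran from -1.18 for rank 34 to 2.41 for rank 37, with a median of -0.068 against -0.0059 over all tested genes. In 75 of the 96 genes the 95% interval lay within a 2-fold change, and in the other 21 it did not. The 5 genes that had risen at 1DPF had differences between -0.27 and 0.44 at 6DPF, all with intervals that hold 0. Of the 11 that had fallen at 1DPF, 10 were still below fasted by group fit, from -1.18 to -0.17, and 8 of the 11 intervals hold 0. The remaining 3 are ranks 12, 34 and 72, and their edgeR adjusted p values at 6DPF were 0.172, 0.116 and 0.189. The 7 genes lower at 4DPF were all below fasted at 6DPF by group fit, from -1.18 to -0.17, and 2 of the 7 intervals hold 0. The 8 genes higher at 4DPF had differences from -0.52 to 0.61 at 6DPF, 7 of them positive, and 6 of the 8 intervals hold 0. All of these sets were picked by a change from the same fasted libraries. That alone can push their 6DPF differences toward the same sign, so no conclusion is drawn from the signs.

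**Figure D4:**
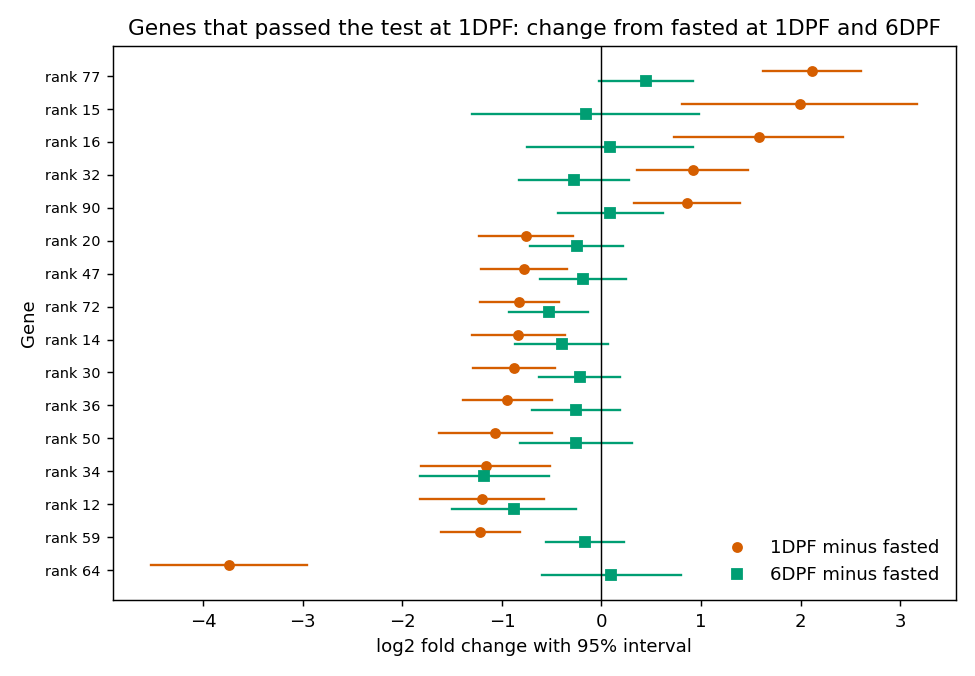
Fitted log2 fold changes from fasted (horizontal axis, with 95% intervals) at 1DPF (circles) and at 6DPF (squares) for the 16 genes that changed at 1DPF (vertical axis). Both sets use the same fasted libraries. At 6DPF rank 64 lies at 0.10 and rank 34 at -1.18.

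Across the whole course 21 of the 96 genes (21.9%) differed among the 4 groups, against 21.3% of all tested genes. DESeq2 called 48 of the 96, which cannot be set against that edgeR share. Read from group means, the highest level fell in the fasted group for 8 of the 21, in the 1DPF group for 5, in the 4DPF group for 7 and in the 6DPF group for 1, and 7 were lowest at 1DPF. The order of the groups within a gene was not tested. In all, 29 of the 96 passed at least 1 of the 6 pairwise tests, 12 of them exactly 1 and 12 exactly 2, and 66 passed none of the 7 tests. These counts were not taken over all tested genes, so whether they are high or low for the 96 is not known. The count of 21 was lower without fasted replicate 2 or any 1 of the 1DPF or 4DPF libraries. Those fits leave 1 library in a group and have less power.

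**Figure D5:**
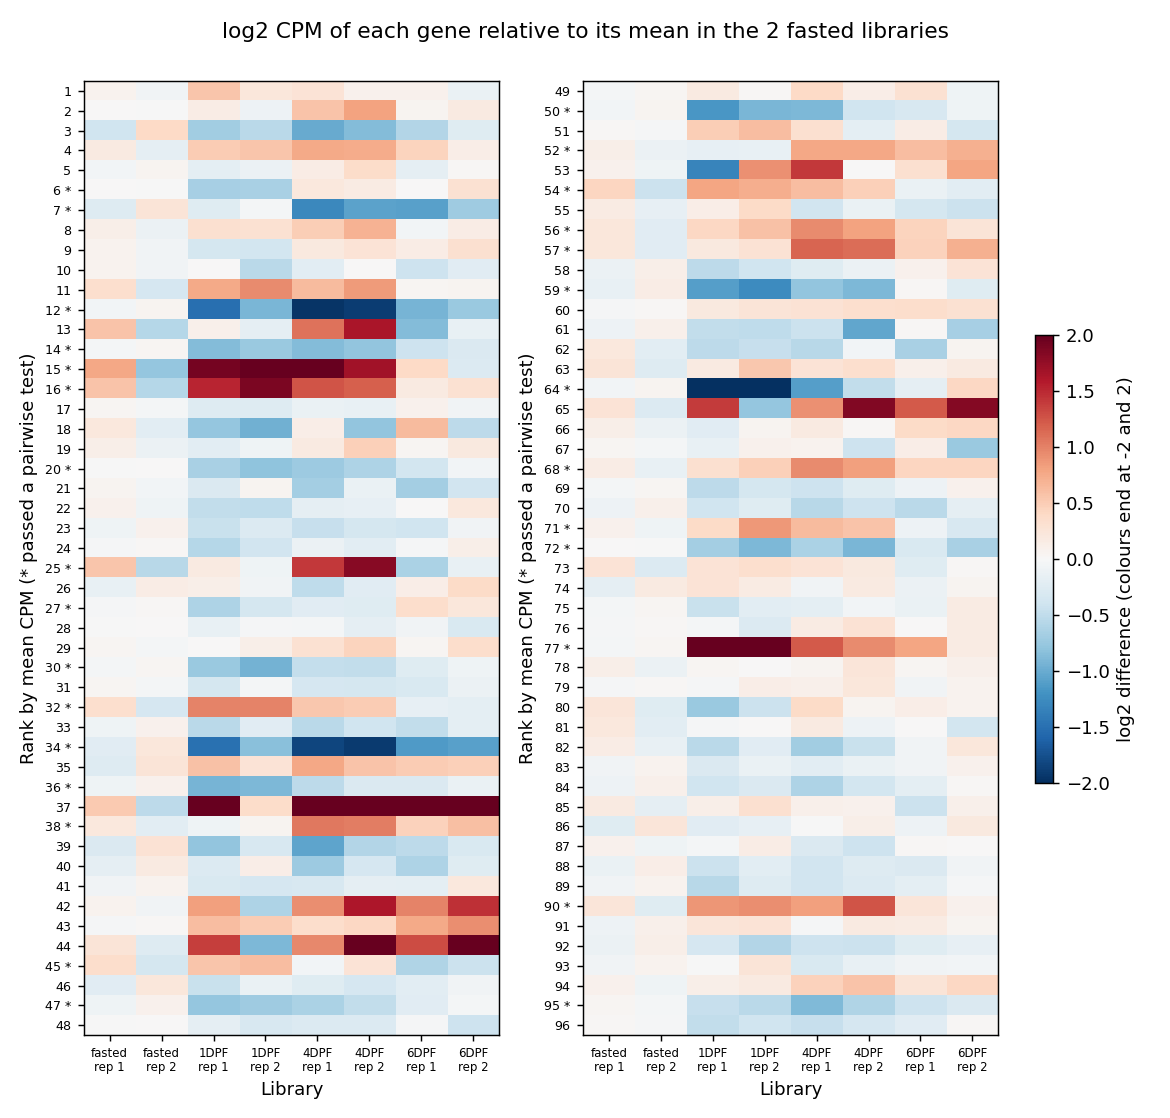
log2 CPM of each of the 96 genes (rows, by rank) in the 8 libraries (columns), relative to the mean of its log2 CPM in the 2 fasted libraries. Red is higher and blue lower, colours end at -2 and 2, and an asterisk marks the 29 genes that passed a pairwise test. Ranks 12 and 34 are among the genes that stay blue in every fed library, and ranks 37, 42, 44 and 65 are among those that are red in all 4DPF and 6DPF libraries.

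Some genes had fitted changes as large as these without passing, and their replicates lay far apart. They are named after their values were seen. In 8 of the 96 the SD between replicates was over 0.5 in log2 CPM. Rank 37 (5552 bases) had 873 and 419 CPM when fasted, then 2695 and 782 (1DPF), 2425 and 4684 (4DPF) and 2866 and 4245 (6DPF). Both fasted libraries and 1DPF replicate 2 were the lowest, and the log2 change from fasted to 4DPF was 2.48 (95% interval 1.01 to 3.94, edgeR adjusted p = 0.0517). Rank 42 (1755 bases) had 1288 and 1170.2 CPM when fasted, then 2166 and 802 (1DPF), 2349 and 3761 (4DPF) and 2451 and 3384 (6DPF), rank 44 (6287 bases) had 1111 and 784 CPM when fasted, then 2433 and 498 (1DPF), 1808 and 3755 (4DPF) and 2295 and 3876 (6DPF), and rank 65 (5131 bases) had 871 and 592 CPM when fasted, then 1889 and 419 (1DPF), 1356 and 2599 (4DPF) and 1675 and 2570.1 (6DPF). In all 4 of these genes 1DPF replicate 1 was over 1DPF replicate 2, and replicate 2 was over replicate 1 at both 4DPF and 6DPF. Rank 53 (730 bases) varied as widely in another way, with 1372 and 1221 CPM when fasted, then 521 and 2426 (1DPF), 3443 and 1298 (4DPF) and 1611 and 2240.2 (6DPF).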

How the data were processed

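Per the file headers, the authors deposited raw read counts for each gene and each of the 8 libraries, beside the length of the gene. Tools named in the submitters' processing notes include DESeq2 1.36.0, featureCounts, SAMtools 1.8, HISAT2 2.1.0 and Trimmomatic 0.36. Not given in the sources used here are the strand setting, the annotation, the genome build and how reads matching several genes were treated, so counts of near-identical copies and of overlapping or antisense genes are uncertain. Count columns were matched to samples through their description labels. From the counts, CPM, TPM, edgeR tests (4.0.16, R 4.3.3) and alternatives with DESeq2 1.42.0 and limma 3.58.1 were computed. The edgeR fit used filterByExpr (minimum count 10, minimum total 15), TMM factors and all 8 libraries with group as the only term, leaving 4 residual degrees of freedom. P-values are two-sided. Standard errors and 95% intervals come from the F statistic, and the intervals are not adjusted for many genes. SDs of log2 CPM used a pseudocount of 0.1. Totals of 33203808 to 42250755 make 1 read worth 0.0237 to 0.0301 CPM.

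Genes named are the 12 highest in mean CPM, the 4 called genes with the largest log2 fold change per pairwise comparison and direction, and those at the threshold, with exceptions stated where they occur. The members and lists were chosen with earlier results of these data known. The 16 gene lists and 8 marker lists written for this report need gene names and were not analysed here. Alternatives were other tests, scalings and filters, the replicate number as a block, other membership limits and each library left out in turn. The fits were tested on simulated data.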

Additional observations from a re-analysis of the deposited data

How the results depend on the processing

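No result among the 36 called combinations of a named gene and a comparison turned direction under any of 15 alternatives, and 6 were called in all of them: ranks 59, 64 and 77 at 1DPF against fasted and at 6DPF against 1DPF. Rank 77 would have a mean under 1000 CPM without the 1DPF group, so its calls are in part a product of the rule. Of the 36, 31 were called under all 7 settings that keep every library. For the steps fasted to 1DPF, on to 4DPF and on to 6DPF, then for 4DPF and 6DPF each against fasted, for 1DPF against 6DPF and across the 4 groups, in that order, edgeR called 16, 5, 0, 15, 0, 16 and 21 of the 96 genes, and DESeq2 called 33, 18, 15, 33, 8, 32 and 48. Each fit without 1 library leaves 1 library in a group and has less power to call a change, so its counts are not given. A limit of 500 CPM gave 249 genes with 40.5% of the counts, of which 57, 23, 0, 41, 1, 52 and 73 were called. A limit of 2000 CPM gave 45 genes with 22.9% of the counts, of which 9, 1, 0, 6, 0, 8 and 12 were called. Without the length limit the share was 31.1%. Without 1 library the number of genes ran from 93 to 97 and their share from 29.7% to 30.4%. Limma voom, RLE factors, library totals alone, TMM factors from the other genes, no filter and a median in place of the mean kept every count within 1.5 times. Under the other tests, scalings and filters the shares of all tested genes called are not given, so those counts cannot be set against the edgeR shares. The cause of the differences was not tested.

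The labels number the replicates 1 and 2 in every group without saying that a number links the groups. Over the tested genes, replicate differences correlated at 0.43 between 4DPF and 6DPF and at -0.34 between 1DPF and 4DPF. Over the 96 genes these correlations were 0.67 and -0.61. With signs that differ, the numbers were not taken as pairs. With the number as a block (replicate block) 17, 5, 0, 13, 0, 18 and 21 genes were called, and rank 25 (4DPF against fasted), rank 57 (4DPF against 1DPF) and rank 90 (all 3 calls) no longer passed, with log2 changes of 1.55, 0.94, 0.85, 1.05 and -0.77. The shares of all tested genes called with the block are not given, so these counts cannot be set against the edgeR shares. The lowest count of any of the 96 genes in a library is 5643.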
